A study of Mus musculus with 10 samples.

Results

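A set of 8 genes of phenylalanine and tyrosine breakdown was followed in whole liver of fasted female mice: Gch1, Pcbd1, Qdpr, Tat, Hpd, Hgd, Gstz1 and Fah. They were chosen by gene symbol in the deposited count table, and all 8 were found among its 19764 genes. All 8 also passed the filter on low counts that left 12558 genes for testing. One group was GRMAC, female mice with a floxed glucocorticoid receptor gene and one copy of LysM-Cre, a Cre recombinase made in macrophages, neutrophils and other myeloid cells. The other was GRflox, littermates that carried the floxed gene without Cre. In both groups food was withdrawn at ZT12, when mice become active, and liver was taken 8 h later. Each group had 5 libraries of polyadenylated RNA, and the ages of the mice are not given in the sources used here. The comparison asks whether loss of the receptor from myeloid cells goes with other levels of these liver transcripts after a fast. Because no group carried Cre without the floxed gene, what Cre alone does and what receptor loss does cannot be told apart.

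The liver breaks phenylalanine down through tyrosine. The first step, from phenylalanine to tyrosine, needs the cofactor tetrahydrobiopterin, which GTP cyclohydrolase (Gch1) starts to make and which pterin-4a-carbinolamine dehydratase (Pcbd1) and dihydropteridine reductase (Qdpr) recycle. Tyrosine aminotransferase (Tat) then removes the amino group, and the product passes through 4-hydroxyphenylpyruvate dioxygenase (Hpd), homogentisate 1,2-dioxygenase (Hgd), maleylacetoacetate isomerase (Gstz1) and fumarylacetoacetate hydrolase (Fah) to fumarate and acetoacetate. Tat in hepatocytes is a textbook target of the glucocorticoid receptor, and its transcript is short-lived, so that it follows hormone and feeding quickly.

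Tat lies on chromosome 8 of mm10 (109990436 to 109999804, plus strand, 12 exons) and Hgd on chromosome 16 (37580153 to 37632026, plus strand, 14 exons). These 2 genes had the largest absolute log2 fold changes of the 8 between the genotypes. Their promoter windows, from 250 bases before to 50 bases after the transcript start, are therefore shown, as given by RefSeq for GRCm38.p6, the assembly also called mm10. The window of Tat is chr8:109990186-109990485 and that of Hgd is chr16:37579903-37580202. RefSeq also gives gene spans that begin farther upstream, at 109986078 (Tat) and 37579742 (Hgd). The bases next to those starts were not searched. Capitals mark the CCAAT box (CCAAT on either strand), the one searched motif that both windows held.
Tat: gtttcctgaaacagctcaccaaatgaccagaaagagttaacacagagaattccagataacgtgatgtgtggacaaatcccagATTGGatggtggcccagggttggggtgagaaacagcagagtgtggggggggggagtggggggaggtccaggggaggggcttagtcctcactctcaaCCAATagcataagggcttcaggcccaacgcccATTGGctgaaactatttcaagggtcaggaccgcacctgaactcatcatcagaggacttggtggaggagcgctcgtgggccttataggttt
Hgd: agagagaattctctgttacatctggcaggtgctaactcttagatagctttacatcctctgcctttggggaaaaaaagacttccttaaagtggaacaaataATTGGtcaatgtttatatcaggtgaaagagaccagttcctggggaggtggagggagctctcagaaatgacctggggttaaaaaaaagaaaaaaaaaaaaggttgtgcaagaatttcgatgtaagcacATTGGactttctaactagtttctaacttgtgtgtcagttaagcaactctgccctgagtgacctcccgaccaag

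The Tat window had 3 CCAAT matches, whose leftmost bases were at -168, -72 and -40 from the transcript start, and the Hgd window had 2, at -150 and -23. A CCAAT box was found in 37.4% of the 32851 promoter windows of the same length in the RefSeq table, so its presence sets neither gene apart. The short recognition site of the glucocorticoid receptor, AGAACA on either strand, was in 19% of all windows and, among the 8 genes, in that of Qdpr only. The FOXA core, TGTTTAC on either strand, was in 3.65% of all windows, and the TATA box, TATAAA on the plus strand, in 8.32%. Neither was in a window of the 8 genes (9 windows, since Gstz1 has 2). The windows of Tat and Hgd held none of the other 3 motifs, so that no matches overlapped there. The windows cover only the bases next to the start, and enhancers farther away were not searched.

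The libraries held 25697931 to 27692528 counts (GRflox) or 23258884 to 26116916 counts (GRMAC), and these totals differed between the genotypes (two-sided exact permutation test, p = 0.0159). Levels below are in CPM, counts relative to the library total after TMM scaling, and the part of depth in the results was not tested. The labels name no batch. Nr3c1, the receptor gene, was at 72.8 ± 7.14 CPM in GRflox against 82.5 ± 7.75 CPM in GRMAC (SD, n = 5; adjusted p = 0.277, edgeR). Whole liver RNA counted per gene checks no deletion in myeloid cells. Lyz2, the gene that carries LysM-Cre, was at 32.3 ± 5.51 and 21.1 ± 5.21 CPM (adjusted p = 0.114, edgeR). In whole tissue, fewer cells of a type and less RNA per cell cannot be told apart. For Lyz2 the Cre insertion in the gene itself, present in GRMAC only, cannot be told apart from either.

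Of the 8 genes, Tat and Hgd were lower in GRMAC liver by unadjusted p. The 3 cofactor genes and Hpd did not reach an unadjusted p under 0.05 with edgeR. The last pair, Gstz1 and Fah, had estimates slightly above 0. None of the 8 passed edgeR's quasi-likelihood test after adjustment over all genes tested, where 0.175% of genes passed. With limma-voom none passed either, against 0.0637% of all genes. At an unadjusted p under 0.05, 2 of the 8 were lower, against 7.75% of all genes, and no member was higher. Only Hgd had groups that did not overlap, as did 2.01% of all genes in that direction. Hgd alone was called lower in the authors' deposited table, where 1.49% of genes were, and in a DESeq2 refit of the counts, where 1.5% were. Log2 fold changes (GRMAC against GRflox) were negative for 5 of the 8, with a median of -0.14 over the 8. Over all tested genes 49.8% were negative, and the median was 0.001.

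**Figure D1:**
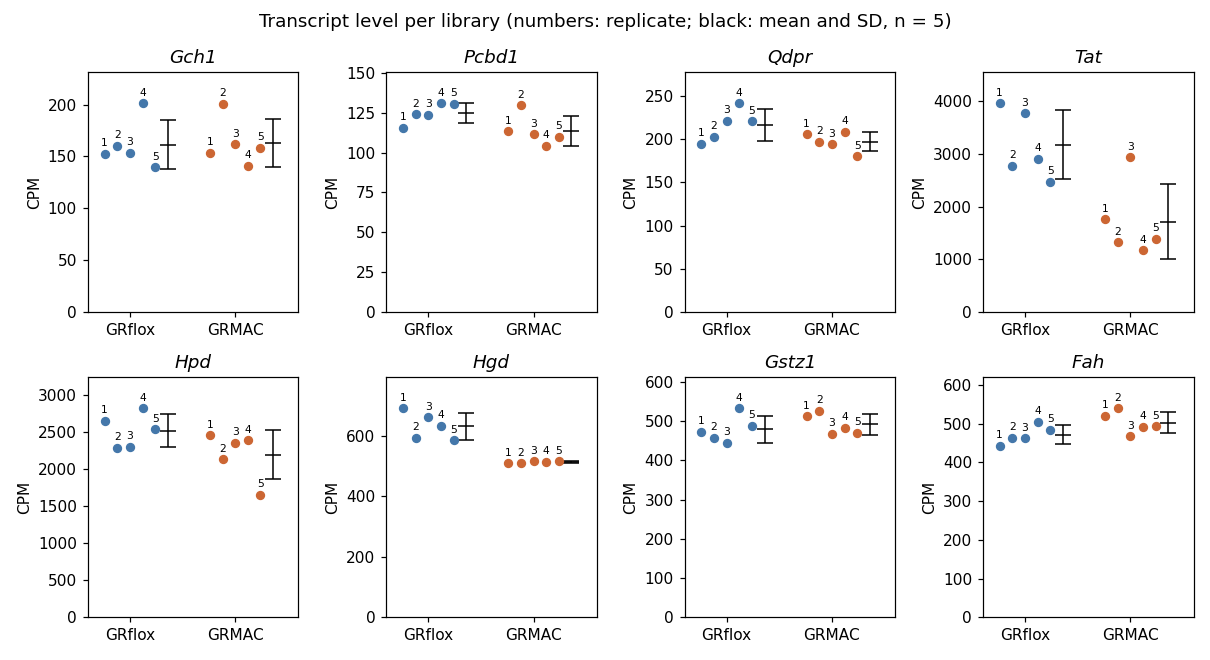
Level of each gene in every library, in TMM-scaled CPM on axes from 0, with GRflox in blue and GRMAC in orange. Points are libraries, numbers are replicates and black bars are the mean and SD (n = 5). Tat in GRMAC 3 (2936 CPM) lies among the GRflox libraries, and the 5 GRMAC points of Hgd lie between 509.7 and 516.7 CPM, below every GRflox point.

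Tat, the enzyme that commits tyrosine to breakdown, was at 3961, 2774, 3769, 2908 and 2471 CPM in GRflox 1 to 5. In GRMAC 1 to 5 it was at 1757, 1326, 2936, 1171 and 1392 CPM. Of the 5 GRMAC libraries, 4 lay below the lowest GRflox library, while GRMAC 3 lay above 3 of the GRflox libraries. The means were 3177 ± 652 CPM in GRflox against 1716 ± 715 CPM in GRMAC (SD, n = 5). The log2 fold change was -0.89 ± 0.25 (SE), with a 95% interval of -1.46 to -0.32, so that the fitted GRMAC level was 54.0% of the GRflox level. The difference did not pass over all genes (unadjusted p = 0.00593 and adjusted p = 0.149 with edgeR), and in the authors' deposited table Tat had an adjusted p of 0.0701. A two-sided exact permutation test of the CPM values over all assignments of 5 against 5 gave p = 0.0317, unadjusted. Without GRMAC 3 the log2 fold change was -1.17 and passed (adjusted p = 0.0167, edgeR). Without GRMAC 1, 2, 4 or 5 in turn the exact permutation p was 0.0556.

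Tat was also the most variable of the 8. Its coefficient of variation was 20.5% in GRflox and 41.7% in GRMAC, and the highest library had 1.6 times the lowest in GRflox and 2.51 times the lowest in GRMAC. Counts of 30471 to 101506 per library put the counting error at 0.346% and 0.484%, far below that spread. Its biological coefficient of variation in edgeR was 0.278, which 2.99% of the 1473 genes with a mean of at least 100 CPM exceeded. Of the 111 tested genes with a mean of at least 1000 CPM, Tat had the largest absolute log2 fold change, while 88 genes at all levels had a larger one.

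Hgd, which opens the ring of homogentisate, was at 691.1, 593.4, 661.2, 633.0 and 586.0 CPM in GRflox 1 to 5. In GRMAC 1 to 5 it was at 510.0, 509.7, 516.6, 515.4 and 516.7 CPM. Every GRMAC library was below every GRflox library. The log2 fold change was -0.30 ± 0.06 (SE; 95% interval -0.43 to -0.17), a fitted level of 81.2% of GRflox. With edgeR the adjusted p over all genes was 0.0630 (unadjusted p = 0.000261, 52nd of the tested genes by p), and the two-sided exact permutation test gave p = 0.00794, the smallest it can give. In the authors' deposited table Hgd passed with a log2 fold change of -0.30 and an adjusted p of 5.3e-05. The call for Hgd thus depended on the tool, and its fold change did not: it lay between -0.33 and -0.27 under all 19 alternatives tried, those that left out 1 library included.

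**Figure D2:**
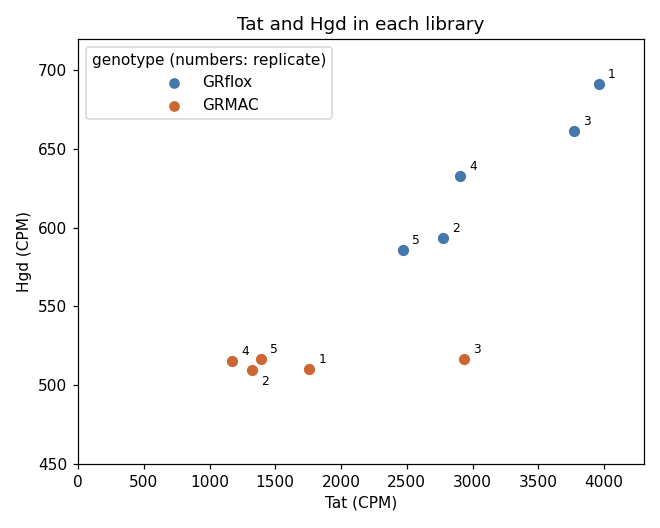
Tat against Hgd in each of the 10 libraries, both in TMM-scaled CPM (the Hgd axis does not start at 0), with replicate numbers beside the points. In GRflox both genes rank the libraries alike, from replicate 5 (2471 and 586.0 CPM) to replicate 1 (3961 and 691.1 CPM), while in GRMAC Hgd stays within 509.7 to 516.7 CPM as Tat runs from 1171 to 2936 CPM.

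Both genes ranked the 5 GRflox libraries in the same order, highest in replicate 1 and then in 3, 4, 2 and 5, as the plot of Tat against Hgd shows. In GRMAC 3, the library with the high Tat level, Hgd was at 516.6 CPM, within the 509.7 to 516.7 CPM of the GRMAC libraries. Relative to raw library totals, without TMM scaling, Hgd ran from 507.0 to 529.2 CPM in GRMAC. No correlation was computed within a genotype. After subtraction of the genotype means, Tat and Hgd had Pearson's r = 0.49 (exact permutation within genotypes, p = 0.0248, adjusted p = 0.231 over 28 pairs) and Spearman's rho = 0.56 (exact permutation, p = 0.0807, adjusted p = 0.323) over the 10 libraries. Without the 2 libraries farthest from the median of Tat, r was 0.62 (exact permutation, p = 0.0868, adjusted p = 0.704). With raw library totals r was 0.41 (exact permutation, p = 0.127, adjusted p = 0.302). Per kb of exonic transcript, the level of Tat was 3.02 to 4.11 times that of Hgd in GRflox. In GRMAC it was 1.63 to 2.47 times that of Hgd in 4 libraries and 4.07 times in GRMAC 3.

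Hpd, the enzyme between Tat and Hgd (chromosome 5, 123171807 to 123182686, minus strand, 14 exons), was at 2645, 2287, 2298, 2814 and 2531 CPM in GRflox 1 to 5. In GRMAC 1 to 5 it was at 2451, 2127, 2352, 2385 and 1653 CPM. The groups overlapped, with GRMAC 5 lowest of all 10 libraries. The log2 fold change of -0.20 ± 0.11 did not pass (adjusted p = 0.375, edgeR; 95% interval -0.43 to 0.03), and without GRMAC 5 it was -0.11. Tat was below Hpd per kb in all 10 libraries, at 0.577 to 0.970 of Hpd in GRflox and 0.290 to 0.738 in GRMAC.

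Neither Gstz1 nor Fah, the last 2 enzymes, passed with edgeR. Gstz1 (chromosome 12, 87147165 to 87164723, plus strand, 10 exons) ranged from 444.6 to 532.0 CPM in GRflox (median 472.1) and from 467.2 to 526.5 CPM in GRMAC (median 483.0). Its log2 fold change was 0.04 ± 0.07 (95% interval -0.10 to 0.18; adjusted p = 0.812, edgeR). Gstz1 shares 465 exonic bases with Pomt2 on the other strand, and the strand setting of the counting is not stated. Pomt2 itself was at 34.2 ± 0.698 CPM in GRflox against 34.1 ± 2.24 CPM in GRMAC (SD, n = 5). Fah (chromosome 7, 84585159 to 84605942, minus strand, 14 exons) ranged from 442.4 to 505.0 CPM in GRflox (median 463.2) and from 467.6 to 539.5 CPM in GRMAC (median 493.6). In 2 GRMAC libraries the level lay above the highest GRflox library, and the log2 fold change was 0.09 ± 0.06 (95% interval -0.04 to 0.23; adjusted p = 0.488, edgeR).

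**Figure D3:**
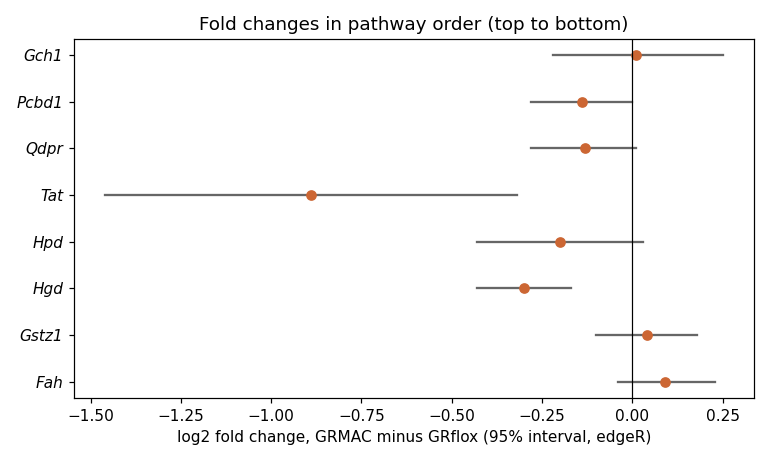
Log2 fold change of GRMAC against GRflox for the 8 genes, in pathway order from the cofactor genes at the top to Fah at the bottom. Points are edgeR estimates and lines their 95% intervals. The intervals of Tat (-1.46 to -0.32) and Hgd (-0.43 to -0.17) lie farthest from 0, and the estimates of Gstz1 (0.04) and Fah (0.09) lie above it.

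None of the 3 cofactor genes passed. Pcbd1 (chromosome 10, 61089331 to 61094329, plus strand, 4 exons), was at 125.0 ± 6.34 CPM in GRflox against 113.7 ± 9.49 CPM in GRMAC (SD, n = 5). In 4 GRMAC libraries the level lay below the lowest GRflox library (115.5 CPM), and GRMAC 2 was at 129.5 CPM. The log2 fold change of -0.14 ± 0.06 did not pass (95% interval -0.28 to 0.00; adjusted p = 0.311, edgeR). Qdpr (chromosome 5, 45434032 to 45450229, minus strand, 7 exons) was at 216.2 ± 18.4 and 197.0 ± 11.1 CPM. Its log2 fold change was -0.13 ± 0.07 (95% interval -0.28 to 0.01; adjusted p = 0.346, edgeR). An antisense transcript shares 332 exonic bases with Qdpr and has no row of its own. Gch1 (chromosome 14, 47153895 to 47189402, minus strand, 6 exons) was at 161.4 ± 23.6 and 163.0 ± 22.7 CPM, a log2 fold change of 0.01 ± 0.11 (95% interval -0.22 to 0.25). One library in each genotype carried its highest level, GRflox 4 with 201.3 CPM and GRMAC 2 with 201.0 CPM.

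To order the 8 genes by level, CPM was divided by length, giving CPM per kb of exonic transcript. The deposited table does not say whether reads in introns were counted, and where they were, this scale is too high for genes with long introns. In GRflox the order from high to low was Hpd (1790 ± 162), Tat (1340 ± 274), Hgd (372 ± 26.2), Gstz1 (305 ± 21.5), Fah (298 ± 15.1), Pcbd1 (158 ± 8.03), Qdpr (157 ± 13.3) and Gch1 (58.2 ± 8.49 CPM per kb; SD, n = 5). Neighbours whose ranges overlapped were Hpd and Tat, Gstz1 and Fah, and Pcbd1 and Qdpr. In GRMAC Hgd (302 ± 2.08 CPM per kb) stood behind Fah (317 ± 17.6) and Gstz1 (313 ± 16.7), with overlapping ranges, and Tat was at 723 ± 301 CPM per kb. The other genes kept their places in GRMAC. The step from tyrosine to homogentisate thus had the most abundant transcripts of the 8 in both genotypes, and the cofactor genes the least.

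Correlations over the 10 libraries, after subtraction of the genotype means, were computed for all pairs of the 8 genes. Of the 28 pairs, none passed after adjustment, for Pearson's r or for Spearman's rho. With 10 libraries this does not show that the genes varied apart. The closest pairs were Gstz1 with Fah (r = 0.84, exact permutation p = 0.00639, adjusted p = 0.142; rho = 0.76, p = 0.0226, adjusted p = 0.209) and Pcbd1 with Fah (r = 0.80, p = 0.0101, adjusted p = 0.142; rho = 0.88, p = 0.00326, adjusted p = 0.0914). Without the 2 libraries farthest from the median, r was 0.64 for the first pair and 0.81 for the second. The correlation of Tat with Fah was -0.58 (exact permutation p = 0.105, adjusted p = 0.291) and was -0.02 without the 2 libraries farthest from the median of Tat.

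After subtraction of the genotype means, Tat was compared over the 10 libraries with 7954 genes with a mean of at least 10 CPM. The genes that followed Tat most closely were Ell2, Slc29a1, Tmf1, Ythdf3 and 2010111I01Rik. Ell2, an elongation factor of RNA polymerase II, had r = 0.968 and rho = 0.88 with Tat, and Slc29a1, a nucleoside transporter, had r = 0.935 and rho = 0.90. Being the top of a long ranking over few libraries, these values describe the libraries and carry no test. Between the genotypes Ell2 had a log2 fold change of -0.20 ± 0.11 and Slc29a1 one of -0.33 ± 0.11, and neither passed (adjusted p = 0.379 and 0.158, edgeR). The other 3 were not lower beyond their SE: Tmf1 at -0.01 ± 0.05, Ythdf3 at 0.06 ± 0.05 and 2010111I01Rik at 0.11 ± 0.09. For Hgd the closest were Dnase2b (r = 0.911), Dcaf10 (0.905), Ap4b1 (0.881), Zfx (0.878) and Spg11 (0.869), with log2 fold changes between -0.13 and 0.12.

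**Figure D4:**
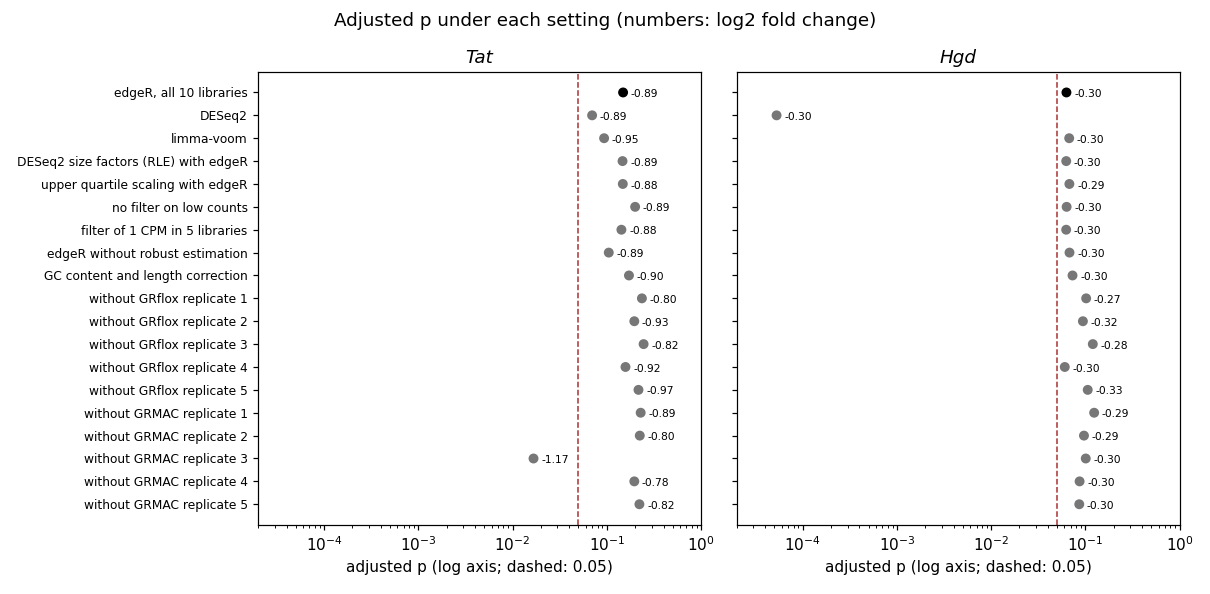
Adjusted p of Tat and Hgd (log axes) with edgeR on all 10 libraries, with other tools, scalings and filters, and with each library left out. Numbers are log2 fold changes and the dashed line is 0.05. The replicate block is not drawn. Among the settings drawn, Tat passes when GRMAC 3 is left out (-1.17), and Hgd passes with DESeq2 (-0.30).

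Other genes around the pathway were also followed. Of 4 further tetrahydrobiopterin genes (Pts, Spr, Gchfr and Pcbd2), none passed with edgeR, none had an unadjusted p under 0.05, and none was called in the authors' deposited table. The median log2 fold change was -0.02, with Pts, the second enzyme of cofactor synthesis, at 0.09 ± 0.09 and Pcbd2, a close relative of Pcbd1, at -0.09 ± 0.11. Of 9 tested genes of other tyrosine routes and of the fumarylacetoacetate hydrolase family, none had an unadjusted p under 0.05 and none was called in the authors' deposited table. Their median was -0.03. All 10 genes of this list in the table summed to 1730 to 1950 CPM in GRflox and 1620 to 1760 CPM in GRMAC (exact permutation test, p = 0.0317, adjusted p = 0.127 over the 16 lists summed). Got1, the cytosolic aspartate aminotransferase that can also act on aromatic amino acids, was at 468 ± 80.5 CPM in GRflox against 370 ± 85.7 CPM in GRMAC (-0.34 ± 0.18, adjusted p = 0.37, edgeR). Maoa, a monoamine oxidase, was at 0.18 ± 0.12.

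Breakdown of tryptophan, the other large aromatic amino acid, was compared through 11 tested genes, with a median of -0.05. None passed with edgeR, and 2 had an unadjusted p under 0.05, both lower, against 7.75% of all genes. The same 2, Kmo and Qprt, were called lower in the authors' deposited table, against 1.49% of all genes, and their groups did not overlap, against 2.01%. The 11 genes summed to 4100 to 4760 CPM in GRflox and 3220 to 4180 CPM in GRMAC (exact permutation test, p = 0.0317, adjusted p = 0.127 over the 16 lists summed). Kmo, kynurenine 3-monooxygenase, was at 283 ± 18.6 CPM in GRflox against 244 ± 10.9 CPM in GRMAC (-0.21 ± 0.06, adjusted p = 0.131, edgeR), and Qprt, which leads into nicotinamide nucleotide synthesis, at 85.8 ± 9.44 and 69.9 ± 4.79 CPM (-0.30 ± 0.08, adjusted p = 0.0945, edgeR). Of 24 tested genes for other amino acids (median -0.08), none passed with edgeR or in the authors' deposited table. At an unadjusted p under 0.05, 3 were lower and 2 higher, against 7.75% and 8.58% of all genes. Sdsl, a serine dehydratase-like gene, was at -0.49 ± 0.17 and Ftcd, of histidine breakdown, at -0.18 ± 0.07.

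Regulators with known roles at Tat in hepatocytes (10 tested, median 0.10) were mixed. None passed with edgeR, and none was called in the authors' deposited table. At an unadjusted p under 0.05, Cebpb was lower and Nr3c1, Foxa2, Cebpa and Onecut1 were higher, 1 and 4 of the 10 against 7.75% and 8.58% of all genes. Cebpa was at 0.32 ± 0.10 (adjusted p = 0.162, edgeR) and Foxa2 at 0.81 ± 0.26 (adjusted p = 0.183, edgeR). Cebpb (-0.49 ± 0.19) and Onecut1 (1.33 ± 0.53) are named after their values were seen. Of 9 transporters that carry or support aromatic amino acids (median -0.01), none passed with edgeR and 2 had an unadjusted p under 0.05, both higher, against 8.58% of all genes. Slc7a8, a light chain of a neutral amino acid exchanger, was at 2.52 ± 0.440 and 4.50 ± 0.919 CPM (0.84 ± 0.17, adjusted p = 0.0623, edgeR), and was the 1 member of the list called higher in the authors' deposited table, where 1.84% of all genes were. Slc7a5, a second such light chain, was at 0.59 ± 0.27.

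The labelled tissue was checked against markers. Hepatocyte markers (9 in the table) summed to 118000 to 138000 CPM in GRflox and 118000 to 140000 CPM in GRMAC, a sum made up mostly of Alb. Of the 9, 7 had positive log2 fold changes, where 49.8% of all tested genes had negative ones. The authors' deposited table called 2 of them higher, against 1.84% of all genes. These were Apob (4960 ± 203 and 5820 ± 371 CPM) and Fgb (3110 ± 203 and 4030 ± 537 CPM), both named after their values were seen. Neither had overlapping groups, and the share of all genes without overlap in this direction is not given here. Periportal hepatocyte markers (10, of which Cps1 and Ass1 are also on the hepatocyte list), from the zone in which much amino acid breakdown takes place, summed to 12500 to 14700 CPM in GRflox and 10600 to 13600 CPM in GRMAC (exact permutation test, p = 0.0238, adjusted p = 0.127 over the 16 lists summed). Of these, 8 had negative fold changes, against 49.8% of all tested genes, with a median of -0.12, and none passed with edgeR. The highest levels on the list were those of Cps1 (4810 ± 586 and 4320 ± 801 CPM) and Pck1 (4750 ± 753 and 3420 ± 768 CPM). The 2 with positive fold changes were Hal (0.17 ± 0.15) and Cyp2f2 (0.08 ± 0.12). These 4 are named after their values were seen. The part of the difference in this sum in the levels of Tat and Hgd was not tested. Pericentral markers (10 of 10) had a median of 0.00 and summed to 9700 to 12000 and 8890 to 12600 CPM. Markers of non-parenchymal cells were also summed. Kupffer cell markers (12) summed to 276 to 369 CPM in GRflox and 296 to 419 CPM in GRMAC, sinusoidal endothelial markers (8) to 235 to 268 and 184 to 298 CPM, stellate cell markers (7) to 328 to 408 and 318 to 446 CPM, and cholangiocyte markers (6) to 28.1 to 36.0 and 28.9 to 50.2 CPM. Neutrophil and monocyte markers (8) summed to 4.22 to 6.01 and 3.66 to 5.42 CPM, and lymphocyte markers (8) to 1.72 to 3.35 and 3.0 to 5.82 CPM (exact permutation test, p = 0.0159, adjusted p = 0.127). Of the 12 Kupffer markers 1, Cd163, passed as lower with edgeR, against 0.175% of all genes passing in either direction. No other marker on these lists passed. Of 7 kidney and pancreas markers, Kap, Prss1, Amy2a5 and Pnlip had no count in any library, and the 7 summed to 5.19 to 7.15 and 5.43 to 7.54 CPM.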

How the data were processed

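Polyadenylated liver RNA of 5 GRflox and 5 GRMAC libraries was read as paired ends from NEBNext Ultra libraries, per the labels' protocols. The authors deposited a table of raw counts, whole numbers with 1 RefSeq transcript per gene. Tools and build appear in the submitters' processing notes as mm10, HISAT2 2.1.0 and DESeq2 1.24.0. The counting program, strand setting, annotation and treatment of introns are not given in the sources used here. Per the file headers, the deposited comparison table gives a log2 fold change for the knockout and an adjusted p-value per gene. Its 10 columns of values per library were not used. Columns were matched to samples by genotype and number in the titles. The labels do not say that libraries are separate mice, and p-values then measure only the spread between these samples.

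Genes were filtered with filterByExpr, which removed 0.0348% of counts, scaled by TMM, and tested with edgeR 4.0.16 (quasi-likelihood, robust, R 4.3.3), with Benjamini-Hochberg adjustment over 12558 genes and a threshold of 0.05. SEs come from the fold change and F statistic, and a count of 3 equals 0.108 to 0.129 CPM. Single CPM values were compared by exact permutation over all assignments. Correlations used log2 CPM less the genotype mean. Exonic lengths are those of GENCODE M21 transcripts matched by RefSeq accession. Alternatives were DESeq2 1.42.0, limma-voom (limma 3.58.1), other scalings and filters, no robust estimation, a GC and length correction (splines with 5 degrees of freedom), the replicate block, and leaving out each library. The scripts were tested on simulated data. The 8 genes and the lists were chosen with earlier results of these data known. Some genes are not reported here and were left out of the lists. Named genes were the 8, Nr3c1, Lyz2, up to 4 called members of each other list or else its 2 with the lowest p, and the 5 genes most correlated with Tat or with Hgd. Genes named outside this rule (Pomt2, Cd163, and the list members said to be) were chosen after their values were seen.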

Additional observations from a re-analysis of the deposited data

Results flagged for a closer look

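Of 38 groups of 5 values examined for a value far from the other 4 (the 8 genes, library totals and summed markers), 1 was picked out, where chance gives about 1.9 (1 in 20). The summed level of sinusoidal endothelial markers was 184 CPM in GRMAC 2, against 277 to 298 CPM in the other GRMAC libraries. Without GRMAC 2 the log2 fold change of Tat was -0.80 and that of Hgd -0.29. No value of the 8 genes themselves was picked out: in GRMAC the Tat level of replicate 3 was separated from the next by less than this rule asks.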

How the results depend on the processing

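With edgeR 22 genes passed. DESeq2 called 425 (all 22 among them), limma-voom 8, no filter on low counts 34, edgeR without robust estimation 8, and the correction for GC content and length 9. Leaving out 1 library gave 5 to 47, lowest without GRflox 3 or 5 and highest without GRMAC 5. The causes were not tested. Over the 19 alternatives the log2 fold change kept its direction for the 8 genes except Gch1. Tat ran from -1.17 to -0.78 (adjusted p 0.0159 to 0.246) and Hgd from -0.33 to -0.27 (adjusted p 5.29e-05 to 0.124). Gch1 turned negative in 5, at -0.0021 with the GC and length correction and at -0.07 to 0.11 with 1 library left out, where its CPM difference ran from -7.95 to 11.5. By exact permutation, unadjusted, Qdpr reached p = 0.0397 without GRflox 1, Pcbd1 p = 0.0317 without GRflox 1 and 0.0159 without GRMAC 2, and Fah p = 0.0397 without GRflox 4 and 0.0476 with raw library totals.

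The replicate numbers do not pair the libraries: same-numbered libraries correlated at -0.11 to 0.17, over 0.1 in 2 of 5 pairs, and 2 libraries in each genotype correlated best with their own number. With the replicate block 81 genes passed, Tat with -0.95 (adjusted p = 0.0159) and Hgd not, with -0.30 (adjusted p = 0.0771).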

Other observations

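With TMM scaling, Hgd varied less among the GRMAC libraries than counting error alone would give on average, and with raw library totals it did not. Its TMM-scaled coefficient of variation was 0.689%, and the counting error of its 11835 to 13416 counts is 0.883%. In GRflox the same gene varied by 7.04%, against a counting error of 0.773%. Among 3637 genes with a mean of at least 1000 counts in GRMAC, 3.02% had a spread below their counting error and 0.0825% had one as small as that of Hgd or smaller, and the median was 7.49%. With raw library totals the spread of Hgd in GRMAC was 1.88%, and 1.54% of the same genes had one as small or smaller. The gene was singled out after its values were seen.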
